A study of Mus musculus with 18 samples.

Results

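Transcripts of 8 MHC class II genes were measured in sorted brain macrophages of bone marrow chimaeras. They were H2-Aa, H2-Ab1, H2-Eb1, Cd74, H2-DMa, H2-DMb1, H2-DMb2 and Ciita, picked by symbol from a list of class II pathway genes drawn up with earlier results of these data known. All 8 were among the 13043 genes of the count table, and all 8 passed the filter on low counts that left 10597 genes to test. MHC class II molecules are cell surface heterodimers that show peptides from internalised proteins to CD4 T cells. In the endoplasmic reticulum the paired α and β chains are held by the invariant chain Cd74, whose remnant is later exchanged for peptide by the editor H2-DM. Transcription of the α and β chain genes depends on the coactivator CIITA, and that of Cd74 and the H2-DM genes at least in part. CIITA does not bind DNA itself but docks on factors at the X and Y boxes of class II promoters. Resident microglia of the healthy brain are known for low class II levels.

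Recipients were wild type C57BL6/C mice that had been lethally irradiated and had received Ms4a3-Cre: R26-TdTomato: Cx3cr1-gfp marrow. Cells were sorted 32 weeks after the transplant, at most 100000 per library, in the presence of actinomycin D, and RNA was read by bulk MARS-seq, a 3′ method that counts unique molecular identifiers (UMIs). Host microglia had no colour. Donor cells with GFP and TdTomato were taken as monocyte-derived, and donor cells with GFP alone as HSC-derived (HSC, haematopoietic stem cell). Both donor types came from the brain parenchyma (microglia, cleared on Percoll) and from the collagenase wash of the brain surface (leptomeningeal macrophages). There were 4 libraries in each of the 3 microglia groups and of monocyte-derived leptomeningeal macrophages, and 2 of HSC-derived leptomeningeal macrophages. All groups share irradiation and transplantation, so no group shows class II levels of an unirradiated brain. Ms4a3-Cre is driven by a gene of granulocyte-monocyte progenitors, the donor cells carry a gfp allele of Cx3cr1, and the labels used here state neither the strain nor the MHC haplotype of the donors. Nothing in the labels ties a replicate to its own mouse, and the p-values below therefore reflect the scatter among libraries, which may be technical.

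Library totals ran from 154727 to 2440234 UMI counts. HSC-derived microglia replicates 3 and 4 and HSC-derived leptomeningeal replicate 2 were the shallowest, with 264795, 317872 and 154727 counts, and stood apart from their groups in ribosomal protein transcripts, at 14.1%, 13.4% and 19.1% of counts against 8.68%, 8.89% and 15.2% in the other libraries of those groups. In these bulk samples, fewer cells of a type and less RNA per cell cannot be told apart. The summed level of 12 microglia markers was between 26712 and 30517 CPM (UMI counts relative to the library size after TMM scaling) in host microglia, between 10763 and 13975 in the 8 donor-derived microglia libraries and between 3204 and 5637 in the 6 leptomeningeal libraries. All 12 markers had counts in every group. They include Cx3cr1, of which the donor cells carry a gfp allele, and the part of that allele in the lower sums was not tested.

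The genes of the α and β chains and of H2-DM lie together. In the mm10 annotation (GENCODE vM21), 6 of the 8 genes fall in 197.1 kb of chromosome 17 (chr17:34119541-34316674), while Cd74 and Ciita lie on other chromosomes. H2-DMb1 and H2-DMb2 are near-identical neighbours: their longest transcripts were 96.0% identical over 1045 aligned bases and the last 300 bases 87.9% identical over 141, so that reads could have been split between them and their separate counts are uncertain. A RefSeq table for GRCm38.p6 held promoters, from 250 bases before to 50 after the start, for 5 of the 8 members, but not for H2-Ab1, Cd74 and Ciita. On either strand, the X box core ACNGATG followed within 60 bases by the Y box ATTGG was present in the 250 bases before the starts of H2-Eb1, H2-DMb1 and H2-DMb2, and in 119 of 32851 promoters overall (0.362%). The X box core alone was in 8.31% of promoters and ATTGG in 33.8%. Parts of 3 promoters are shown for where these letters lie in genes with large (H2-Aa, H2-Eb1) and small (H2-DMb2) differences between the groups. Capitals mark the X box core and the Y box, which are 22 bases apart in H2-Eb1 (chr17:34305759-34305827, plus strand) and 23 in H2-DMb2 (chr17:34145109-34145178, plus strand). In H2-Aa (chr17:34287852-34287931, minus strand) the stretch shown holds ATTGG without the core spelled as above. The 250 bases before the start of H2-Aa do hold the core outside this stretch, searched on either strand, but without ATTGG following within 60 bases. Each is written 5′ to 3′ on the strand of its gene, and a match of letters is a description, not a measured site.
H2-Eb1: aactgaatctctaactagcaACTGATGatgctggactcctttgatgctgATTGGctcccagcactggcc
H2-DMb2: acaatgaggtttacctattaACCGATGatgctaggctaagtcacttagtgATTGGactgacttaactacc
H2-Aa: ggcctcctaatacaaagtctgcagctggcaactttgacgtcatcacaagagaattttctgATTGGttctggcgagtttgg

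The α and β chain genes and Cd74 rose in steps from host microglia through monocyte-derived and HSC-derived microglia to leptomeningeal macrophages. H2-Aa, the α chain of I-A, had 33.6, 33.7, 55.8 and 29.5 CPM in host microglia replicates 1 to 4. It had 928, 1527, 1637 and 1322 CPM in monocyte-derived microglia and 3473, 3869.9, 4524 and 3483 in HSC-derived microglia. These 3 groups did not overlap, and host replicate 3 stood above the other host libraries. In leptomeningeal macrophages H2-Aa was at 11904, 23437, 19857 and 15869.5 CPM in monocyte-derived and at 13426 and 15335 in HSC-derived libraries. Both HSC-derived leptomeningeal libraries lay inside the monocyte-derived range, and all 6 lay above every microglia library.

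H2-Ab1, the β chain of I-A, followed H2-Aa closely, with means of 50.3 ± 9.74 (SD, n = 4), 1376 ± 325 and 3827 ± 359 CPM in host, monocyte-derived and HSC-derived microglia. Its leptomeningeal means were 16651 ± 4243 (n = 4) in monocyte-derived and 15341 ± 482 (n = 2) in HSC-derived cells. H2-Eb1, the β chain of I-E, had 10.02, 15.0, 22.1 and 14.7 CPM in host microglia, 536, 828, 930.4 and 799 in monocyte-derived and 2043, 2299, 2889.8 and 2199.5 in HSC-derived microglia. Again no 2 of the microglia groups overlapped. Leptomeningeal H2-Eb1 was at 7759.8, 11219.8, 11633 and 10264 CPM in monocyte-derived libraries and 7959.9 and 8442 in HSC-derived ones, which lay in the lower part of the monocyte-derived range.

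Cd74 encodes the invariant chain, a chaperone that also serves as a receptor for the cytokine MIF. Host microglia had 47.2, 49.6, 53.0 and 48.2 CPM, monocyte-derived microglia 873, 1371, 1410.4 and 1223, and HSC-derived microglia 2930.2, 3195, 3694 and 2892. The microglia groups did not overlap, in the same order as for the chains. Monocyte-derived leptomeningeal macrophages had 13932, 9237, 13073 and 10042 CPM and the HSC-derived libraries 15386 and 16976. Cd74 was the member of these 4 for which both HSC-derived leptomeningeal libraries lay above all monocyte-derived ones.

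H2-DMa and H2-DMb1 encode the chains of H2-DM, and H2-DMb2 a second β chain. For these genes host microglia were not near 0. H2-DMa had 605, 662, 559 and 532 CPM in host microglia, 797, 721, 869 and 807 in monocyte-derived and 935, 936, 1199 and 888 in HSC-derived microglia. The host libraries lay below all others, and the 3 microglia groups did not overlap, although they lay close together. Leptomeningeal H2-DMa was at 913, 1847, 1616 and 1232 CPM in monocyte-derived and 1194 and 1171 in HSC-derived cells, a range that began inside that of HSC-derived microglia. H2-DMb1 had 178, 215, 164 and 156 CPM in host, 156, 180.4, 204 and 191 in monocyte-derived and 239, 276, 272 and 278 in HSC-derived microglia. Host and monocyte-derived microglia overlapped throughout. In the leptomeninges it reached 642, 696, 869.7 and 721 CPM in monocyte-derived and 654 and 616 in HSC-derived libraries.

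H2-DMb2 was counted rarely, from 5 to 53 UMIs in a library. It had between 8.07 and 14.1 CPM in host microglia, 18.2 to 24.8 in monocyte-derived and 22.7 to 31.3 in HSC-derived microglia. Monocyte-derived leptomeningeal libraries had 22.5, 40.6, 33.8 and 35.7 CPM and the HSC-derived ones 79.0 and 46.2, of which the second rests on 6 UMIs.

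Ciita, the coactivator gene, had 0, 1, 17 and 2 UMIs in the 4 host libraries, or 0, 0.455, 5.97 and 1.34 CPM, so that replicate 3 held most of the host signal. Monocyte-derived microglia had 13.3, 21.5, 23.1 and 13.6 CPM and HSC-derived microglia 49.6, 48.1, 35.9 and 31.3, with the last 2 from 7 and 8 UMIs. The leptomeningeal levels were 210.1, 249, 291 and 216 CPM in monocyte-derived and 149 and 208 in HSC-derived cells. Host and donor libraries did not overlap, nor did microglia and leptomeningeal ones, and both HSC-derived leptomeningeal libraries lay below the monocyte-derived ones.

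**Figure D1:**
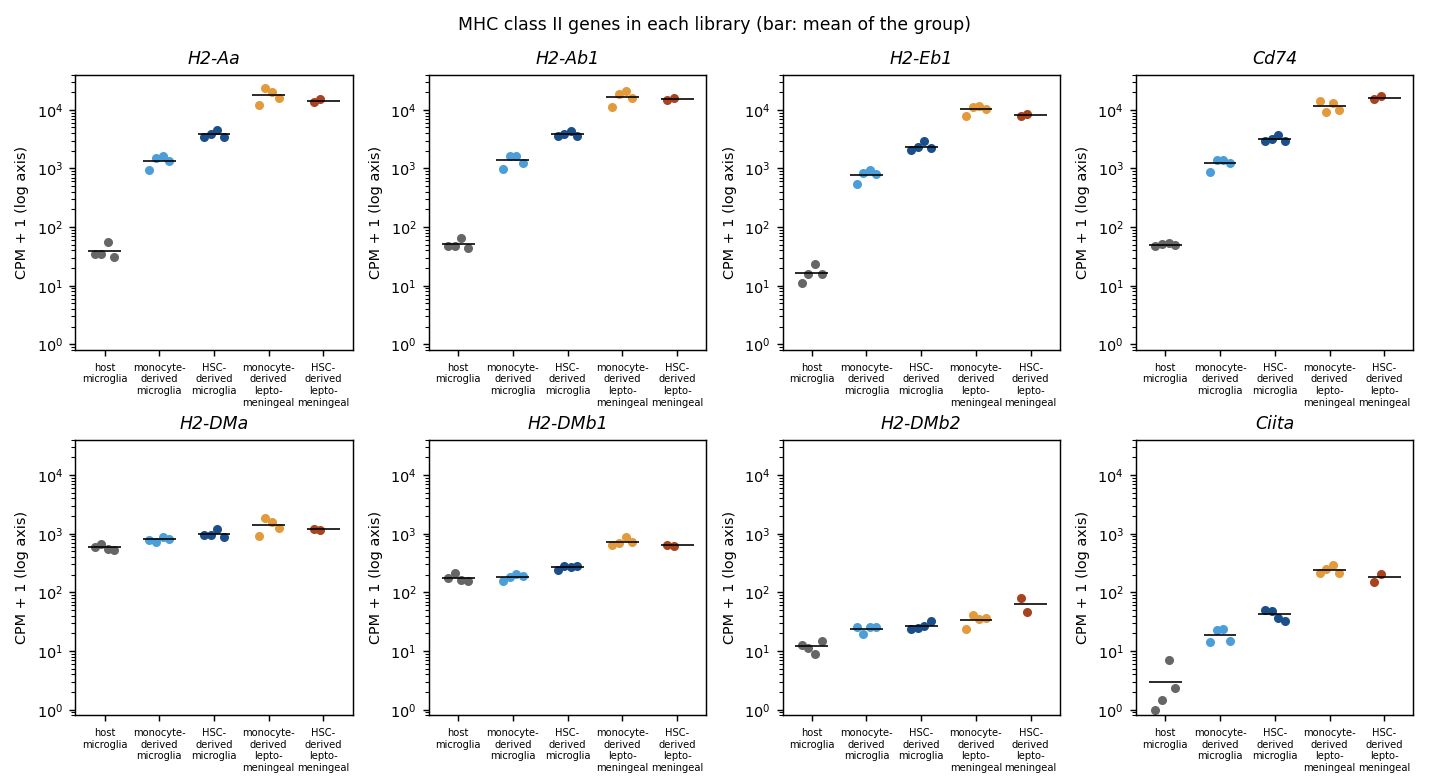
Level of each of the 8 genes in each of the 18 libraries, as CPM + 1 on a log axis; points are libraries, bars group means. H2-Aa, H2-Ab1, H2-Eb1, Cd74 and Ciita climb from host microglia to the leptomeningeal groups, while H2-DMa spans only 532 to 1847 CPM.

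The first question was how donor-derived microglia differ from host microglia in the same compartment. In monocyte-derived microglia H2-Eb1 was 50.0-fold higher by means, H2-Aa 35.5-fold, H2-Ab1 27.4-fold and Cd74 24.6-fold. HSC-derived microglia were 152-fold higher for H2-Eb1, 101-fold for H2-Aa, 76.1-fold for H2-Ab1 and 64.2-fold for Cd74. Of the 8 members, 6 rose in monocyte-derived microglia and 0 fell (edgeR quasi-likelihood (QL) test, Benjamini-Hochberg adjusted over all tested genes, threshold 0.05), where 30.2% of tested genes were called. In HSC-derived microglia all 8 rose, where 29.4% of tested genes were called. The median log2 change of the members was 3.71 and 5.05, against 0.01 and 0.00 over all tested genes. Both comparisons share the host libraries.

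By log2 fold change, H2-Eb1 rose by 5.59 (SE 0.25, adjusted p = 4.13e-19) in monocyte-derived and by 7.20 (SE 0.26, adjusted p = 2.61e-21) in HSC-derived microglia. Ciita rose by 2.80 (SE 0.44, adjusted p = 3.14e-05) and 4.11 (SE 0.45, adjusted p = 2.17e-07). Without host replicate 3 the Ciita values were 4.68 and 5.98, with 0 to 2 UMIs in each remaining host library. H2-DMb2 rose by 1.12 (adjusted p = 0.000291) and 1.20 (adjusted p = 0.00204). H2-DMa had a log2 difference of 0.44 in monocyte-derived microglia (adjusted p = 0.0551) and rose by 0.74 in HSC-derived microglia (adjusted p = 0.00154). H2-DMb1 had a difference of 0.03 in monocyte-derived microglia (approximate 95% interval -0.25 to 0.32, adjusted p = 0.902) and rose by 0.57 in HSC-derived microglia (adjusted p = 0.00425). Scaled by library totals alone, which moved the median of all genes to -0.28, the last 2 calls in HSC-derived microglia were lost (0.39, adjusted p = 0.0553, for H2-DMa and 0.24, adjusted p = 0.234, for H2-DMb1).

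**Figure D2:**
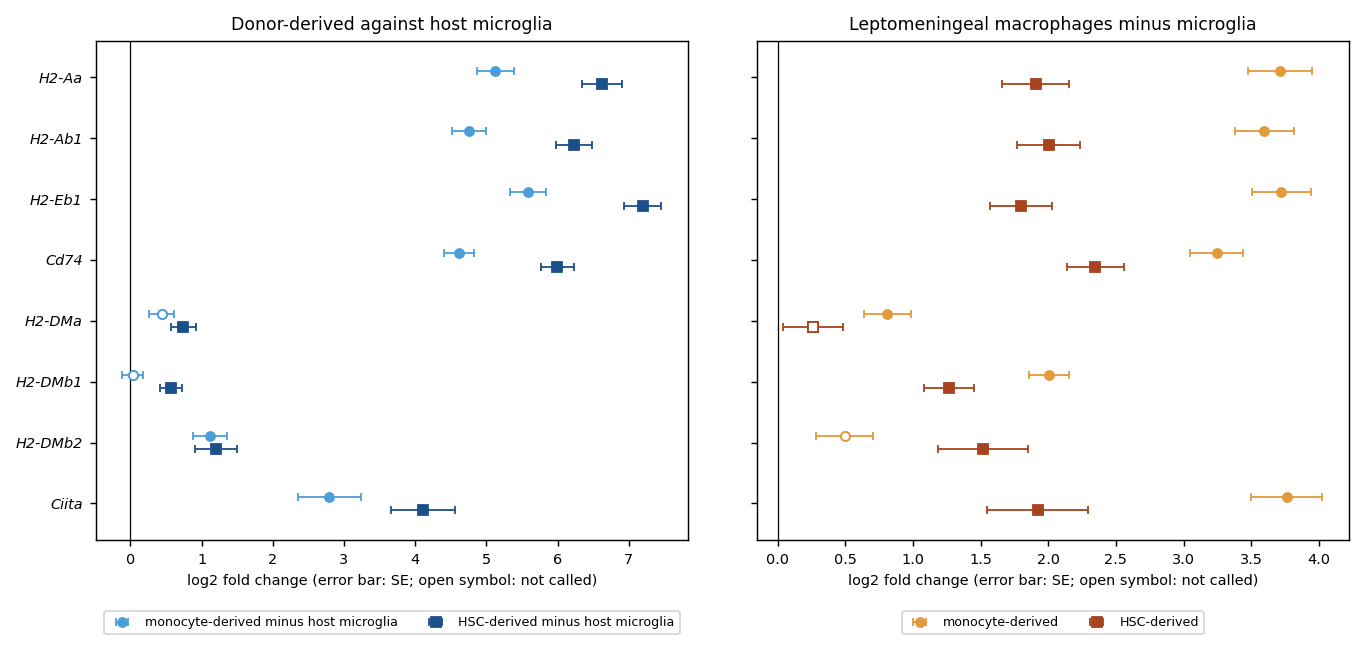
Log2 fold changes of the 8 genes with SE, left for donor-derived against host microglia and right for leptomeningeal macrophages against microglia of the same origin; open symbols did not pass the test. H2-Eb1 is farthest right on the left panel, at 5.59 and 7.20, and H2-DMb1 in monocyte-derived microglia sits at 0.03.

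The second question was whether donor-derived microglia differed with the fate label. HSC-derived microglia had 3.05-fold more H2-Eb1, 2.84-fold more H2-Aa, 2.78-fold more H2-Ab1 and 2.61-fold more Cd74 than monocyte-derived microglia. These were the 4 of 8 members called higher, with 0 lower, where 1.89% of tested genes were called. The log2 changes were 1.61 for H2-Eb1 (SE 0.20, adjusted p = 2.32e-05), 1.503 for H2-Aa (SE 0.22, adjusted p = 0.000141), 1.48 for H2-Ab1 (SE 0.20, adjusted p = 7.16e-05) and 1.38 for Cd74 (SE 0.18, adjusted p = 5.55e-05). For 7 of 8 members the libraries of both groups did not overlap, as for 10.6% of tested genes. Ciita, with a mean of 41.2 ± 9.02 against 17.9 ± 5.19 CPM, had a difference of 1.32 (adjusted p = 0.0534), and H2-DMb1 one of 0.54 (adjusted p = 0.0586). Both were called by DESeq2 (adjusted p = 0.00409 and 0.00672). H2-DMa differed by 0.30 (approximate 95% interval -0.04 to 0.65) and H2-DMb2 by 0.09 (-0.45 to 0.62), and neither was called.

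The 4 calls also held in the deeper HSC-derived libraries. Without the 3 shallow libraries the changes were 1.48 for H2-Eb1, 1.43 for H2-Aa, 1.41 for H2-Ab1 and 1.32 for Cd74, with adjusted p between 9.79e-06 and 0.0374, while the number of called genes fell from 200 to 50. In that fit, the log2 difference of Ciita was 1.45 (adjusted p = 0.255).

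In the leptomeninges the same contrast passed the test for no member. HSC-derived and monocyte-derived leptomeningeal macrophages differed by -0.31 for H2-Aa (approximate 95% interval -0.82 to 0.21), -0.12 for H2-Ab1 (-0.60 to 0.36), -0.32 for H2-Eb1 (-0.79 to 0.15) and -0.53 for Ciita (-1.14 to 0.09). By edgeR 0 of 8 members were called, where 0.302% of tested genes were, and DESeq2 also called 0. An unadjusted p under 0.05 was reached by 2 members: Cd74, with a difference of 0.48 (0.06 to 0.91, adjusted p = 0.412), and H2-DMb2, with 1.11 (0.54 to 1.67, adjusted p = 0.0922). Without the 3 shallow libraries, which leaves HSC-derived leptomeningeal replicate 1 as the only one of its group, H2-DMb2 was called higher (1.27, adjusted p = 0.0274); the lone library is taken to vary as the other groups do. The intervals for the chain genes lie below the changes of 1.48 to 1.61 seen in microglia, although the group has only 2 libraries.

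**Figure D3:**
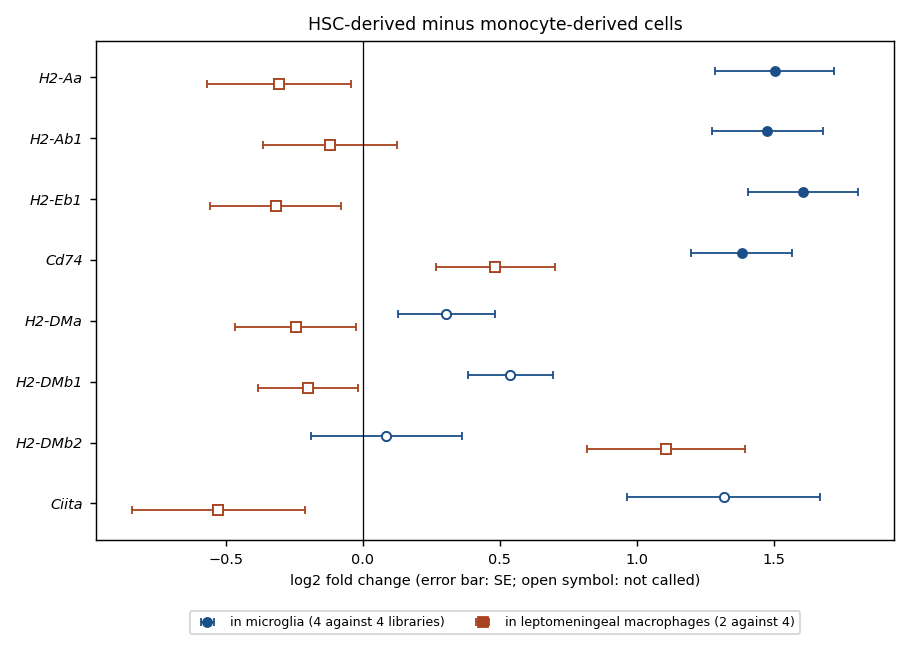
Log2 difference between HSC-derived and monocyte-derived cells with SE for each gene, in microglia (circles) and leptomeningeal macrophages (squares); open symbols did not pass the test. H2-Aa, H2-Ab1, H2-Eb1 and Cd74 lie between 1.38 and 1.61 in microglia, and no square is filled.

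The interaction of origin with compartment tests that difference directly. The HSC minus monocyte difference was lower in leptomeningeal macrophages than in microglia by 1.92 for H2-Eb1 (log2 scale, SE 0.32, adjusted p = 0.0079 by the edgeR QL test), 1.81 for H2-Aa (SE 0.35, adjusted p = 0.0308) and 1.59 for H2-Ab1 (SE 0.32, adjusted p = 0.0367). They were 3 of the 6 genes called in the whole table, which is 0.0566% of tested genes. The other 3, named after their values were seen, were Ccr2, Gngt2 and Lgals3. Interaction values for Ciita (-1.84, adjusted p = 0.255), Cd74 (-0.90, adjusted p = 0.387), H2-DMa (-0.55, adjusted p = 0.645) and H2-DMb1 (-0.74, adjusted p = 0.387) did not pass, nor did 1.02 for H2-DMb2 (adjusted p = 0.511). H2-Aa lost its call in 10 of 21 alternatives, with values between -1.88 and -1.54, and H2-Ab1 in 14, with -1.69 to -1.32. Both were lost on leaving out monocyte-derived microglia replicate 1, 2 or 4, monocyte-derived leptomeningeal replicate 2 or 3 or either HSC-derived leptomeningeal library, and H2-Ab1 also without monocyte-derived microglia replicate 3, HSC-derived microglia replicate 4 or monocyte-derived leptomeningeal replicate 4. H2-Eb1 lost its call in 1 alternative, without HSC-derived leptomeningeal replicate 2 (-1.94, adjusted p = 0.17). DESeq2 called 5 members.

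The third question was how leptomeningeal macrophages differ from microglia of the same origin. Among monocyte-derived cells, leptomeningeal macrophages had 13.5-fold more Ciita, 13.2-fold more H2-Eb1, 13.1-fold more H2-Aa, 12.1-fold more H2-Ab1, 9.49-fold more Cd74 and 4.01-fold more H2-DMb1. Here 7 of 8 members rose, where 35.3% of tested genes were called. H2-Eb1 rose by 3.72 on the log2 scale (SE 0.22, adjusted p = 1.89e-15), Ciita by 3.76 (SE 0.26, adjusted p = 1.69e-10), H2-DMb1 by 2.00 (SE 0.15, adjusted p = 6.12e-13) and H2-DMa by 0.81 (SE 0.17, adjusted p = 0.000376). H2-DMb2 differed by 0.49 (adjusted p = 0.0633), and by 0.64 (adjusted p = 0.0148) without monocyte-derived leptomeningeal replicate 1.

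Among HSC-derived cells, leptomeningeal levels were 5.09-fold higher for Cd74, 4.34-fold for Ciita, 4.01-fold for H2-Ab1, 3.75-fold for H2-Aa and 3.48-fold for H2-Eb1. Again 7 of 8 members rose, where 9.72% of tested genes were called. Cd74 rose by 2.35 (SE 0.21, adjusted p = 5.95e-10), H2-Aa by 1.91 (SE 0.25, adjusted p = 1.29e-06) and H2-DMb1 by 1.27 (SE 0.19, adjusted p = 8.67e-06). H2-DMb2 rose by 1.52 (adjusted p = 0.00197), but not without HSC-derived leptomeningeal replicate 1 (0.82, adjusted p = 0.494). H2-DMa differed by 0.26 (approximate 95% interval -0.17 to 0.69).

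Ordered by mean, host microglia were lowest for all 8 members, followed by monocyte-derived and HSC-derived microglia. In the leptomeninges HSC-derived cells stood highest for Cd74 and H2-DMb2 and monocyte-derived cells for the other 6. For H2-Aa, H2-Ab1, H2-Eb1 and Cd74 each step up to the leptomeningeal pair passed the test, and the pair itself was not told apart. For Ciita the steps from host to monocyte-derived microglia and from HSC-derived microglia to the leptomeninges passed. For H2-DMb1 only the step into the leptomeninges passed, and for H2-DMb2 only that from host to monocyte-derived microglia. For H2-DMa no neighbours in the order passed, although the ends did: monocyte-derived leptomeningeal macrophages were 2.38-fold above host microglia (log2 change 1.25, adjusted p = 2.85e-07). Against host microglia 8 of 8 members were higher in each leptomeningeal group, where 46.6% of tested genes were called for monocyte-derived and 33.6% for HSC-derived cells. H2-Eb1 was 661-fold and 530.1-fold higher there. Across origins, HSC-derived microglia were below monocyte-derived leptomeningeal macrophages for 7 of 8 members, with 19.1% of tested genes called, of which H2-DMa (-0.51, adjusted p = 0.0399) lost its call in 7 alternatives, among them leaving out HSC-derived microglia replicate 1, 2 or 4 or monocyte-derived leptomeningeal replicate 2 or 3. HSC-derived leptomeningeal macrophages were above monocyte-derived microglia for 7 of 8, with 21.3% of tested genes called; without HSC-derived leptomeningeal replicate 1 the change of H2-DMb2 went from 1.60 to 0.89 (adjusted p = 0.384).

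Together the 8 genes took a rising share of all transcripts. Their part of the UMI counts was 0.096% to 0.119% in host microglia, 0.495% to 0.741% in monocyte-derived microglia and 1.08% to 1.52% in HSC-derived microglia. It reached 4.55% to 5.90% in monocyte-derived and 4.84% to 4.91% in HSC-derived leptomeningeal libraries. The shallowest library, with 7592 class II UMIs of 154727, had 4.91% (95% exact interval 4.80% to 5.02%, for counting error only).

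Ratios of counts within a library do not depend on scaling between libraries, and they show how the members moved against each other. H2-Aa per H2-DMa was 0.0508 to 0.0998 in host microglia, 1.16 to 2.12 in monocyte-derived microglia, 3.71 to 4.14 in HSC-derived microglia, 12.3 to 13.04 in monocyte-derived and 11.2 to 13.1 in HSC-derived leptomeningeal macrophages. No microglia group overlapped another in this ratio, and the leptomeningeal libraries lay within a narrow band although H2-Aa itself varied from 11904 to 23437 CPM among them. These are ratios of UMI counts, not of molecules per cell surface, and only their change between libraries is read here.

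H2-Ab1 per H2-Aa stayed near 1 in all donor-derived libraries, from 0.806 to 1.12. Cd74 per H2-Aa was 0.817 to 0.844 in HSC-derived microglia and 0.862 to 0.941 in monocyte-derived microglia. In monocyte-derived leptomeningeal macrophages it spread from 0.394 in replicate 2 to 1.17 in replicate 1, while both HSC-derived leptomeningeal libraries had 1.11 and 1.15. H2-DMb1 per H2-DMa was 0.195 to 0.324 in all microglia and 0.377 to 0.704 in all leptomeningeal libraries, with no overlap.

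**Figure D4:**
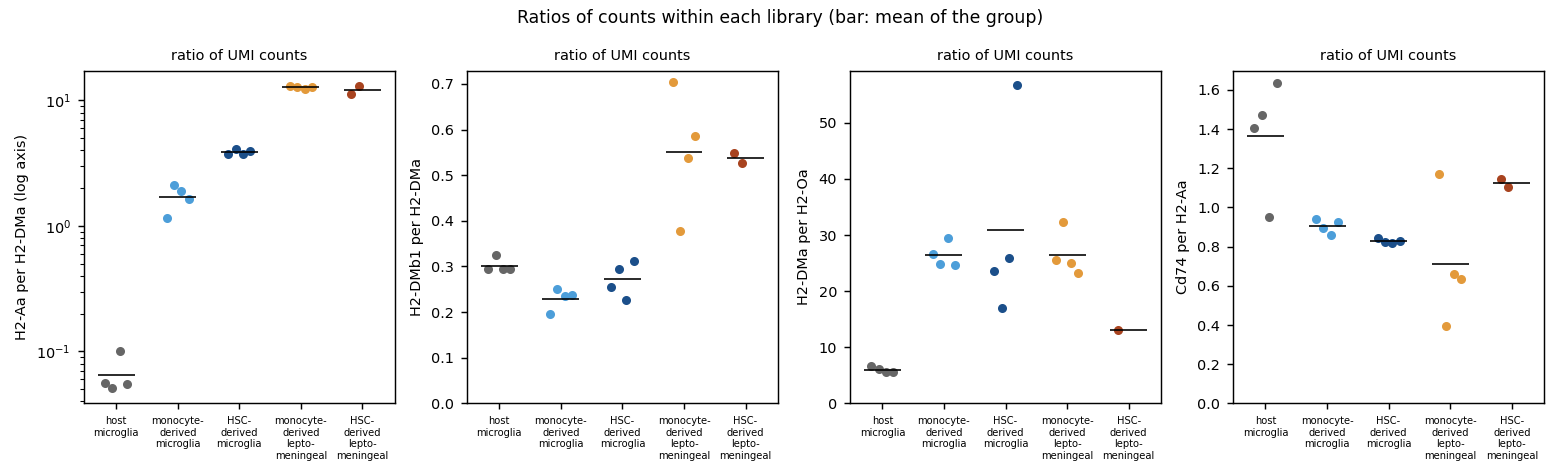
Ratios of UMI counts within each library; points are libraries, bars group means, and the first panel has a log axis. H2-Aa per H2-DMa separates the 3 microglia groups and lies between 11.2 and 13.1 in the leptomeningeal libraries, while Cd74 per H2-Aa is widest, 0.394 to 1.17, in monocyte-derived leptomeningeal macrophages. H2-DMa per H2-Oa has no value for HSC-derived leptomeningeal replicate 2, where H2-Oa had 0 counts.

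H2-Oa fell in both donor-derived microglia groups against host. With H2-Ob it encodes H2-DO, an inhibitor of H2-DM. H2-Oa had 91.6, 109, 101 and 96.4 CPM in host microglia, 30.0, 29.0, 29.4 and 32.7 in monocyte-derived and 39.7, 54.97, 46.1 and 15.7 in HSC-derived microglia, without overlap between host and donor cells. It fell by 1.72 on the log2 scale in monocyte-derived (SE 0.24, adjusted p = 4.94e-06) and by 1.24 in HSC-derived microglia (SE 0.29, adjusted p = 0.00181). H2-DMa per H2-Oa was 5.51 to 6.60 in host and 24.7 to 29.5 in monocyte-derived microglia. H2-Ob differed by 0.11 and 0.12 (adjusted p = 0.604 and 0.673). Of the 4 tested genes of other class II chains and modulators, 2 fell in monocyte-derived and 1 in HSC-derived microglia. Over all tested genes 30.2% and 29.4% were called. Those that fell in monocyte-derived microglia were H2-Oa and Marchf1 (-0.41, adjusted p = 0.00959). Marchf1 encodes a ubiquitin ligase that removes class II from the surface.

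No factor on which CIITA docks passed the test. In the list of 8 genes for the RFX complex, NF-Y and the CREB family, 0 were called in each of the 7 main comparisons by edgeR, 0 had an unadjusted p under 0.05, and DESeq2 called 0. Their medians ran from -0.17 to 0.01 on the log2 scale, and the summed level was 154 to 227 CPM over all libraries. Rfx5, at means from 6.43 to 16.3 CPM, shows how few counts some of these genes had.

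Of 11 genes of the interferon-γ receptor, its signalling and other inducers of Ciita, 2 rose and 3 fell in monocyte-derived against host microglia. In HSC-derived microglia 2 rose and 5 fell. Of all tested genes 30.2% and 29.4% were called in these comparisons. Ifngr1, the ligand-binding receptor chain, fell by 0.63 (adjusted p = 0.000564) and by 1.12 (adjusted p = 3.05e-07). In monocyte-derived leptomeningeal macrophages against microglia, 5 rose and 3 fell, with Irf1, an interferon-induced activator of Ciita, up by 1.40 (adjusted p = 1.44e-08) and Ifngr2 lower by a log2 change of -1.83 (adjusted p = 2.79e-06). The HSC-derived pair had 3 higher, among them Irf1 (1.03, adjusted p = 0.00775), and 1 lower, Irf8. Of all tested genes 35.3% were called in the monocyte-derived and 9.72% in the HSC-derived pair. Between HSC-derived and monocyte-derived microglia edgeR called 0 of 11, with 4 at an unadjusted p under 0.05 and 1 called by DESeq2.

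Of 13 tested GTPase and chemokine genes that interferon-γ induces, 3 rose and 0 fell in monocyte-derived against host microglia. Of all tested genes 30.2% were called there in either direction, and 1604 of 10597 were called higher. Gbp8 was among the 3 of this list, up by 2.64 (adjusted p = 1.89e-11). In HSC-derived microglia 5 rose and 1 fell, where 29.4% of tested genes were called. In leptomeningeal macrophages against microglia 7 rose among monocyte-derived and 4 among HSC-derived cells, where 35.3% and 9.72% of tested genes were called. Gbp2, a guanylate-binding protein gene, rose by 2.29 (adjusted p = 1.53e-08) and 2.66 (adjusted p = 5.97e-05). The medians of this list were 0.17, 0.66, 0.61 and 0.88 in these 4 comparisons, where those of the class II members were 3.71, 5.05, 3.42 and 1.85.

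The list of 11 genes of endolysosomal processing also held the protease inhibitor genes Cst3 and Cstb. Of these 11, 1 rose and 4 fell in monocyte-derived and 1 rose and 2 fell in HSC-derived against host microglia. With 30.2% and 29.4% of all tested genes called, the HSC-derived count is near that background. Ctsl, a cathepsin that can degrade the invariant chain, fell by 1.48 (adjusted p = 1.8e-10) and by 1.41 (adjusted p = 1.43e-09). In leptomeningeal macrophages against microglia 2 rose and 6 fell among monocyte-derived, and 1 rose and 6 fell among HSC-derived cells, where 35.3% and 9.72% of tested genes were called. Among HSC-derived cells the 1 that rose was Cstb, and Cst3 was among those that fell. Ctsd, the aspartic protease cathepsin D, fell by 1.75 (adjusted p = 2.12e-09) and by 2.27 (adjusted p = 3.35e-08).

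Genes of costimulation and of T cell inhibition, whose products act beside class II on T cells, were mixed. Both kinds were counted in 1 list. Havcr2 and Vsir, of the inhibitory kind, were called in each comparison of this paragraph. Of 10 tested, 5 rose and 2 fell in each donor-derived microglia group against host, where 30.2% and 29.4% of tested genes were called. Cd40 rose by 2.11 (adjusted p = 1.42e-07) and 2.22 (adjusted p = 3.67e-06), and Icosl by 1.54 (adjusted p = 9.04e-09) and 1.30 (adjusted p = 3.04e-06). In monocyte-derived leptomeningeal macrophages against microglia 4 rose and 4 fell, with Tnfsf9 up by 2.81 (adjusted p = 1.53e-07) and Icosl lower by -1.42 (adjusted p = 9.47e-08). Among HSC-derived cells 1 rose and 2 fell. Of all tested genes 35.3% were called between compartments for monocyte-derived and 9.72% for HSC-derived cells.

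Markers of other class II-bearing cells moved with some of these comparisons. Of 14 tested dendritic cell markers, 7 rose and 2 fell in monocyte-derived and 8 rose and 1 fell in HSC-derived against host microglia. In the leptomeninges 9 rose and 2 fell for monocyte-derived and 5 and 2 for HSC-derived cells. Of all tested genes 30.2%, 29.4%, 35.3% and 9.72% were called in these comparisons, in that order. Between HSC-derived and monocyte-derived microglia, where 1.89% of tested genes were called, 1 of these markers rose, the lectin gene Mgl2 (1.957, adjusted p = 0.0163). In that comparison 8 of the 14 had an unadjusted p under 0.05 by edgeR, as had 1639 of 10597 tested genes, and DESeq2 called 2. The median log2 difference of the 14 was 0.72, against -0.02 over all tested genes. Their summed level was 2345 to 2654 CPM in host, 3018 to 3168 in monocyte-derived and 3319 to 4760 in HSC-derived microglia, 2783 to 3240 in monocyte-derived and 3081 to 3590.04 in HSC-derived leptomeningeal macrophages. Siglech is on both the dendritic cell and the microglia list. In host microglia 3 of the 17 listed genes in the table had 0 counts, Ccr7, Dpp4 and Ly6d.

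Among the defining markers, Flt3 was at 0 to 0.455 CPM in host, 3.31 to 7.71 in monocyte-derived and 0 to 21.99 in HSC-derived microglia. Zbtb46, also on the dendritic cell list, overlapped among these groups, at 0.670 to 3.51, 1.40 to 5.59 and 0 to 8.25 CPM. Cd209a, a lectin gene of monocyte-derived dendritic cells, was at 4.03 to 22.4 CPM in monocyte-derived microglia and at 45.3 and 54.97 in HSC-derived microglia replicates 1 and 2. In the shallow HSC-derived replicates 3 and 4 it had 0 counts, where 3 counts would be 15.4 and 11.7 CPM. Other dendritic cell markers had counts in these libraries: Mgl2 was at 41.0 and 74.4 CPM, Clec10a at 20.5 and 11.7, Clec9a at 15.4 and 3.91 and Ccr7 at 10.2 and 3.91, most of them from 1 to 4 UMIs. In replicates 1 and 2 Mgl2 was at 38.3 and 53.6 CPM, and in monocyte-derived microglia at 5.19 to 19.9. In the leptomeninges Cd209a was at 162 to 232 CPM in monocyte-derived and at 374 and 108 in HSC-derived cells. Clec10a was at 313 to 360 CPM there in monocyte-derived and at 557 and 277 in HSC-derived cells. Mgl2 was at 215 to 400 CPM and at 648 and 377. Flt3 was at 26.2 to 32.9 CPM and at 24.0 and 0, and Zbtb46 at 5.38 to 7.73 and at 13.7 and 15.4. The part of dendritic cells in the class II levels of microglia and leptomeningeal macrophages was not tested.

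B cells also carry class II. Their markers Ms4a1 and Fcmr had 0 counts in host microglia and in both HSC-derived groups, and Fcmr also in monocyte-derived microglia. A level of 3 counts would be 4.12 to 15.4 CPM in HSC-derived microglia and 5.15 and 23.1 in the HSC-derived leptomeningeal libraries. The 0 counts in these shallow libraries therefore do not show that B cells were absent. Of 5 tested B cell markers 1 rose in HSC-derived against host microglia, the antigen receptor component gene Cd79b, where 29.4% of tested genes were called. Between HSC-derived leptomeningeal macrophages and microglia, with 9.72% of tested genes called, 0 of the 5 were called. DESeq2 and an unadjusted p under 0.05 also gave 0. Igkc had 15.5 CPM in HSC-derived leptomeningeal replicate 1 and 0 counts in replicate 2. In monocyte-derived leptomeningeal macrophages Ms4a1 was at 2.81 to 5.49 CPM and the immunoglobulin gene Igkc at 401, 80.2, 545 and 529. In this group 3 of the 5 rose against monocyte-derived microglia, where 35.3% of tested genes were called. The summed level of the list was 715 to 1351 CPM against 505 to 561. The part of B cells in the class II levels was not tested.

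T and NK cell markers had 14 of 16 higher in monocyte-derived and 5 of 16 higher in HSC-derived against host microglia. Called genes made up 30.2% and 29.4% of all tested genes there. In the leptomeninges 16 and 7 of 16 of these markers were higher than in microglia of the same origin, with 35.3% and 9.72% of tested genes called. Their summed level was 106 to 169 CPM in host, 294 to 389 in monocyte-derived, 56.4 to 443 in HSC-derived microglia, 1276 to 2137 in monocyte-derived and 478 to 1117 in HSC-derived leptomeningeal libraries. In HSC-derived microglia replicates 3 and 4 Cd8a had 0 counts, with 3 counts at 15.4 and 11.7 CPM, and Trac, a T cell receptor gene, had 0 and 15.7 CPM, the latter above replicates 1 and 2. Monocyte markers had a summed level of 17.3 to 19.4 CPM in host, 115 to 216 in monocyte-derived, 220.3 to 258 in HSC-derived microglia, and 1641 to 3835 in the leptomeninges. The part of these cells in the class II levels was not tested.

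Border macrophage markers also rose with these comparisons. All 11 were higher in monocyte-derived and in HSC-derived against host microglia, with median log2 changes of 5.43 and 5.73. In the leptomeninges 8 of 11 rose for each origin, with 1 lower among monocyte-derived cells. Of all tested genes 30.2% and 29.4% were called against host, and 35.3% and 9.72% between compartments. The summed level of the 11 markers was 834 to 995 CPM in host, 4128 to 4775 in donor-derived microglia and 7511 to 13965 in leptomeningeal macrophages. Between HSC-derived and monocyte-derived microglia 1 of 11 rose, Cbr2, and the summed levels overlapped, at 4128 to 4775 and 4320.2 to 4588 CPM. Of 9 pan-macrophage markers, 1 rose and 2 fell in monocyte-derived and 2 rose and 2 fell in HSC-derived against host microglia. Of 8 stromal, endothelial and glial markers, 0 rose and 3 fell in monocyte-derived and 5 rose and 3 fell in HSC-derived microglia. For both lists the share called over all tested genes was 30.2% and 29.4%. The part of border macrophages in the class II levels was not tested.

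**Figure D5:**
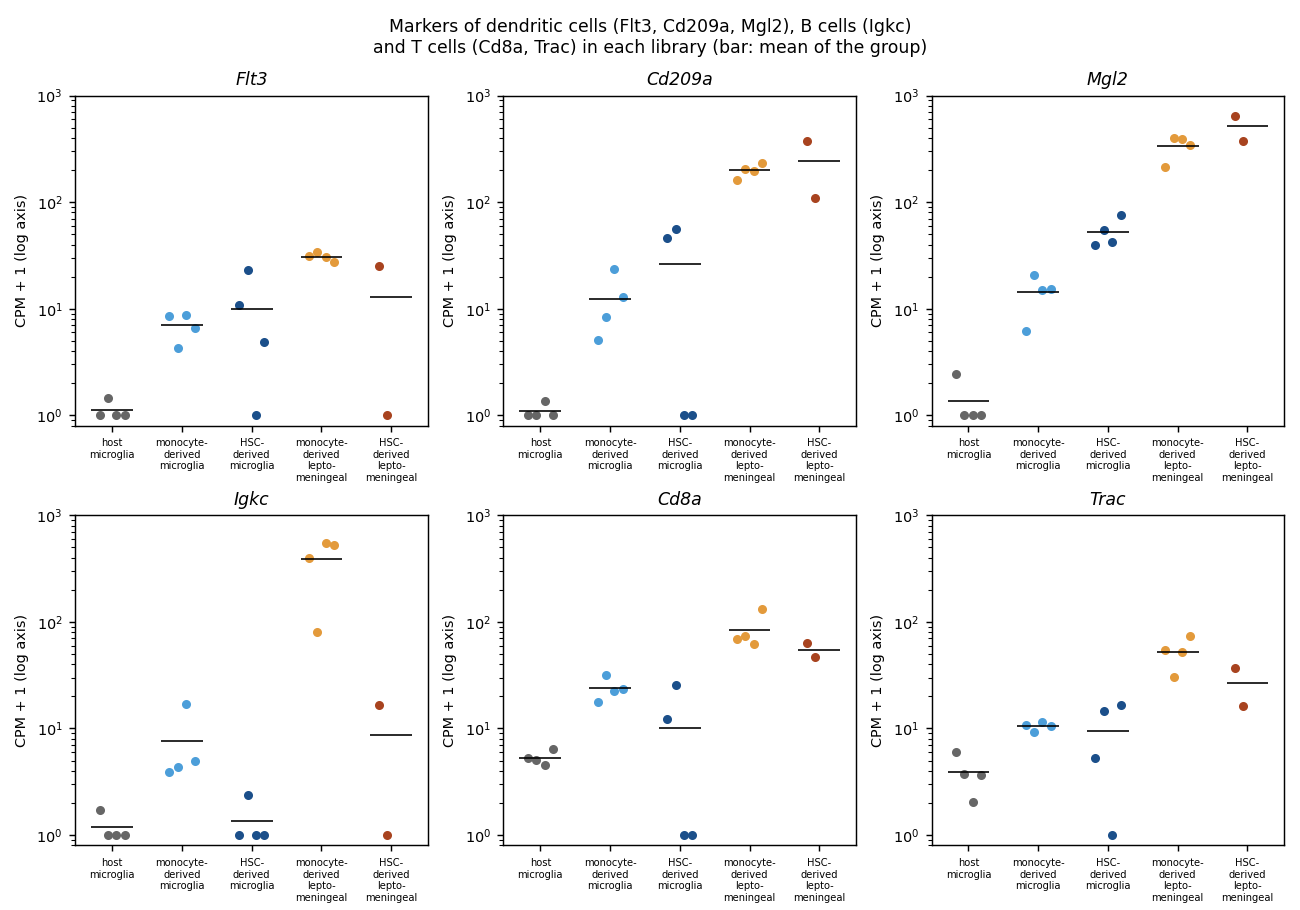
Level of markers of dendritic cells (Flt3, Cd209a, Mgl2), B cells (Igkc) and T cells (Cd8a, Trac) in each library, as CPM + 1 on a log axis; points are libraries, bars group means. In HSC-derived microglia replicates 3 and 4 Cd209a and Cd8a are at 0 while Mgl2 is at 41.0 and 74.4 CPM, and Igkc is highest, 80.2 to 545 CPM, in monocyte-derived leptomeningeal macrophages.

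Other genes had nearly the same pattern over the 18 libraries. Likeness was Pearson's r between a gene's log2 CPM and the mean log2 CPM of H2-Aa, H2-Ab1, H2-Eb1 and Cd74, among 9278 other genes with a mean of at least 5 CPM, as a description of libraries that share 5 groups. Within the class II set r was 0.967 for Ciita, 0.882 for H2-DMa, 0.866 for H2-DMb2 and 0.80 for H2-DMb1. The 8 most alike were Plbd1 (0.989), Pf4 (0.986), Tgfbi (0.984), Lyz2 (0.984), Pltp (0.982), Lilr4b (0.982), Ifi211 (0.981) and F13a1 (0.98). Lyz2, the lysozyme gene, went from a mean of 696 CPM in host to 3900 and 6593 in monocyte-derived and HSC-derived microglia and to 12653 and 11705 in leptomeningeal macrophages. Once group means were subtracted, r was 0.722 for Ifi211, 0.561 for Pltp, 0.487 for Pf4 and 0.455 for Tgfbi, and between -0.127 and 0.422 for the other 4.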

How the data were processed

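RNA of 18 libraries in 5 groups was analysed. Values are UMI counts for each gene, whole and not normalized, as the authors deposited them; scaled columns beside them were not used. The submitters' processing notes name the build mm10, with aligner and counter not given in the sources used here. In the table, 2 raw count columns matched no described sample and were left out. The 8 members, all gene lists, tests and alternatives were chosen with earlier results of these data known.

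In edgeR 4.0.16 (under R 4.3.3 with limma 3.58.1) low genes were removed by filterByExpr and libraries scaled by TMM before a fit in 1 quasi-likelihood model over all 18 libraries with a coefficient per group. Its biological coefficient of variation was 0.161. Tests were two-sided, p-values were adjusted by Benjamini-Hochberg over 10597 genes, and a gene with an adjusted p below 0.05 is called higher or lower. Levels are CPM, given as mean ± SD. The SE of a log2 change was derived from the change and its F statistic, and approximate 95% intervals from the SE. The fit was tested on simulated data. A count of 3 corresponded to between 1.05 and 23.1 CPM, depending on the library. The exact interval of a share and the floors cover counting error only. The approximate 95% intervals also take in the scatter among libraries.

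Every member was named. From each other list up to 4 called genes with the smallest p per comparison could be named, beside defining markers of dendritic, B and T cells at any level, and the 8 genes most alike in pattern. The lists held dendritic cell, B cell, T and NK cell, monocyte, microglia, border macrophage, pan-macrophage, and stromal, endothelial and glial markers. Alternatives were DESeq2 1.42.0 as the test, its size factors, library totals, no filter, a replicate block, the compared groups alone, leaving out each library in turn, and leaving out the 3 libraries under 400000 counts. Sequences were searched with Python 3.11.15 and transcripts aligned with Biopython 1.88. Results for some listed genes are not reported here.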

Additional observations from a re-analysis of the deposited data

Results flagged for a closer look

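In groups of 4 libraries, 4 of 32 combinations of gene and group had 1 library far from the other 3, where chance gives about 1 in 20. H2-Aa in host microglia had its highest library at 55.8 CPM, replicate 3, which was also highest for H2-Ab1, H2-Eb1, Cd74 and Ciita. H2-DMa in HSC-derived microglia had its highest at 1199 CPM, replicate 3, one of the shallow libraries. H2-DMb1 in HSC-derived microglia had its lowest at 239 CPM, replicate 1. H2-DMb2 in monocyte-derived microglia had its lowest at 18.2 CPM, replicate 2, from 22 UMIs.

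The difference between HSC-derived and monocyte-derived cells was itself different in leptomeningeal macrophages and microglia for H2-Aa (-1.81 on the log2 scale), H2-Ab1 (-1.59) and H2-Eb1 (-1.92), by the interaction term of the edgeR QL fit. Each HSC-derived group in this term includes shallow libraries, and without them the values were -1.83, -1.56 and -1.83, with H2-Eb1 alone still called.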

How the results depend on the processing

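The number of members called stayed within 6 to 8 in every alternative run for the comparisons with host microglia, between compartments of the same origin and across origin and compartment, and within 4 to 6 for HSC-derived against monocyte-derived microglia. Over all 11 comparisons, 1240 single-gene values kept direction and side of the threshold, 37 lost and 18 gained a call, and 9 turned direction. Turned values were all near 0 and not called. For H2-DMb1 in monocyte-derived against host microglia they were -0.004 with library totals, and leaving out 1 library each gave -0.024 to 0.146. Between HSC-derived and monocyte-derived microglia, library totals gave -0.019 for H2-DMa and -0.162 for H2-DMb2, for which leaving out the 3 shallow libraries gave -0.026 and leaving out 1 library each -0.003 to 0.147. For H2-Ab1 between the leptomeningeal groups the replicate block gave 0.016. There, 1 member was called without the shallow libraries. The interaction called 1 member with library totals, 1 without the shallow libraries, 1 with the compared groups alone, 5 with DESeq2, and 0 to 3 on leaving out 1 library each. The cause of these shifts was not tested. Library totals moved the median of all genes to as low as -0.44 on the log2 scale (HSC-derived leptomeningeal macrophages against host microglia).

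Of 32 same-numbered pairs of libraries, 1 correlated over 0.1 in their deviations from group means, as did 3 of 96 other pairs. All of these pairs joined an HSC-derived microglia library with an HSC-derived leptomeningeal one, both deeper or both shallow. With only 2 libraries in the leptomeningeal group, their deviations mirror each other (0.323 and -0.323 against HSC-derived microglia replicate 1). This count therefore cannot show a pairing by number, and a weak pairing is not excluded by it. Between monocyte-derived microglia and leptomeningeal macrophages, same-numbered pairs correlated at 0.0143 to 0.0575 and the others at -0.0443 to 0.0257. With the replicate block 5 members were called between the 2 microglia groups of donor origin in place of 4, and the number of members called did not change in the other 10 comparisons. Depth limits Ciita and H2-DMb2 most, with 5 to 8 UMIs each in HSC-derived microglia replicates 3 and 4, and the leptomeningeal HSC-derived group has 2 libraries.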
